A study of Mus musculus with 6 samples.

Results

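The 78 genes described here carry the symbols of mitochondrial ribosomal proteins. They are all the rows, of 19832 in the table, whose symbol starts with Mrpl or Mrps and a number, and the symbol divides them into 49 large subunit (Mrpl) and 29 small subunit (Mrps) genes. Their mRNAs were measured by RNA sequencing in EO771 cells, a mouse mammary tumour line, in 3 libraries of cells treated with recombinant LCN2 (lipocalin-2, a secreted carrier of siderophores and the iron they hold) and 3 libraries of control cells without it. Neither a dose nor an exposure time is stated. All 6 libraries come from this cell line, with no other genotype or agent named. No label says that replicates were grown separately, so p-values here reflect only how far these libraries scatter, which may be technical.

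Mitochondrial ribosomes translate the mRNAs of mitochondrial DNA, all of which encode subunits of the respiratory chain and the ATP synthase. The ribosomal RNAs come from mitochondrial DNA, whereas every protein of the particle is encoded in the nucleus, made in the cytosol and imported. Some of these proteins descend from bacterial ribosomal proteins (unified names with the prefix u or b) and most others were added in mitochondria (prefix m). The genes are spread over the chromosomes and must be expressed together for the particle to be built.

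Values are FPKM (fragments relative to library size and transcript length), a unit inferred from the deposited numbers. Being per length, they allow levels to be compared between genes. The number of reads behind them is unknown. Columns summed to between 391569 and 410808 FPKM. On the first principal component of all tested genes LCN2 replicate 2 lay between the groups, at -4.34, with the other LCN2 libraries at -16.5 and -15.7 and the controls between 8.09 and 17.3. Of the mammary epithelial markers, Krt8, Krt18, Krt19, Krt14 and Epcam were abundant in every library (lowest for Epcam, with means of 13.4 FPKM in LCN2 and 16.4 FPKM in control cells), while Cdh1 (0.156 in LCN2 and 0.140 FPKM in control cells) and Krt5 (0.777 in LCN2 and 0.650 FPKM in control cells) were low. The 7 epithelial markers summed to 1230 to 1250 FPKM in LCN2 and 1270 to 1330 FPKM in control libraries, but single markers differed. Krt8 (244 in LCN2 and 308 FPKM in control cells, limma adjusted p = 0.0096) and Krt19 (187 in LCN2 and 228 FPKM in control cells, 0.023) fell. Krt18 (746 in LCN2 and 693 FPKM in control cells, 0.031) and Krt14 (49.05 in LCN2 and 45.0 FPKM in control cells, 0.038) rose. Without LCN2 replicate 1 none of these 4 was called, nor any but Krt8 without LCN2 replicate 3, control replicate 1 or control replicate 3 (adjusted p of up to 0.131 over all fits that left out 1 library), and their part in the results was not tested. The 4 mast cell markers in the table were listed at 0 in every library, and the summed leukocyte markers were at 8.83 to 9.43 FPKM in LCN2 and 7.5 to 9.55 FPKM in control libraries, nearly all of it Cd68. The mRNAs of mitochondrial DNA made up 8.82% to 9.02% of the summed FPKM of LCN2 libraries and 8.96% to 9.03% of that of control libraries.

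All 78 mRNAs were present in every library and all passed the filter for testing, a mean of at least 1 FPKM. Their mean level over the 6 libraries ran from 5.22 to 98.9 FPKM with a median of 26.1 FPKM, against a median of 13 FPKM over all tested genes. Large subunit mRNAs had a median level of 30.3 FPKM and small subunit mRNAs one of 23.1 FPKM. The most abundant was Mrpl13, a core protein shared with bacteria, at 96.9, 95.5 and 93.3 FPKM in LCN2 replicates 1 to 3 and 106, 100 and 101 FPKM in control replicates 1 to 3. Next came Mrpl12, at 73.0, 75.5 and 76.9 FPKM in LCN2 cells and 87.6, 82.8 and 81.3 FPKM in control cells. It forms the flexible stalk that recruits translation factors and has also been found bound to the mitochondrial RNA polymerase. The third was Mrpl52, a protein specific to mitochondria, at 76.2, 74.1 and 81.1 FPKM in LCN2 cells and 87.6, 74.6 and 82.1 FPKM in control cells. Mrpl13 and Mrpl12 were lower in every LCN2 library as deposited, but after scaling between libraries the groups overlapped, as did those of Mrpl52 on either scale. None of the 3 passed the test after this scaling (log2 fold changes -0.042, -0.094 and -0.013, limma adjusted p = 0.565, 0.214 and 0.924), and the sign of Mrpl52 turned without LCN2 replicate 2, control replicate 1 or control replicate 3 (0.024, 0.051 and 0.006). With values as deposited Mrpl12 passed (adjusted p = 0.0496).

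The lowest member was Mrps10, a protein of the head of the small subunit, which was also the most variable. It had 2.07, 6.08 and 3.71 FPKM in LCN2 cells against 12.6, 4.996 and 1.88 FPKM in control cells, so that the control values alone spanned the whole range of the treated ones (log2 fold change -0.35, SE 0.54, adjusted p = 0.663). Without control replicate 1 its sign turned, to 0.23. Mrpl1, of the mobile stalk beside the exit site of transfer RNA, had a mean of 6.72 FPKM and is described with the called genes. Mrpl48, a mitochondria-specific protein of the central protuberance, had 8.003, 7.06 and 6.28 FPKM in LCN2 cells and 9.85, 7.81 and 6.94 FPKM in control cells. The groups overlapped (adjusted p = 0.534), and its log2 fold change of -0.12 became 0.017 without control replicate 1. The median SD of a member within a group was 0.063 in LCN2 and 0.072 in control cells on the log2(FPKM + 1) scale, beside 0.078 in LCN2 and 0.070 in control cells for all tested genes.

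Of the 78 mRNAs, 2 rose and 8 fell with LCN2, at a Benjamini-Hochberg adjusted p under 0.05 in limma, adjusted over all 10309 tested genes. The falls were Mrpl40, Mrpl18, Mrpl3, Mrpl44, Mrps11, Mrpl36, Mrpl1 and Mrps36, and the rises Mrps31 and Mrpl17. Among all tested genes 11.8% rose and 9.73% fell, so the share of members that fell (10.3%) was near the background and the share that rose (2.56%) was below it. The fold changes of the members were nevertheless mostly negative. On the log2(FPKM + 1) scale, LCN2 minus control, 56 of 78 lay below 0 with a median of -0.063, where all tested genes had 49.8% below 0 and a median of 0.001. After scaling, all 3 LCN2 libraries lay below all 3 controls in 23 members (29.5%, background 21.6%) and above them in 10 (12.8%, background 23%). At an unadjusted p under 0.05 in limma, 6 members were higher and 23 lower, beside 2089 and 1937 of all 10309 tested genes. The unadjusted counts of other fits, given below, have no such count over all genes beside them. With values as deposited, 1 member rose and 21 fell with a median of -0.124, and of all genes 6.72% rose and 16.3% fell with a median of -0.056. In bulk RNA of this kind, fewer expressing cells and less RNA per cell cannot be told apart.

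**Figure D1:**
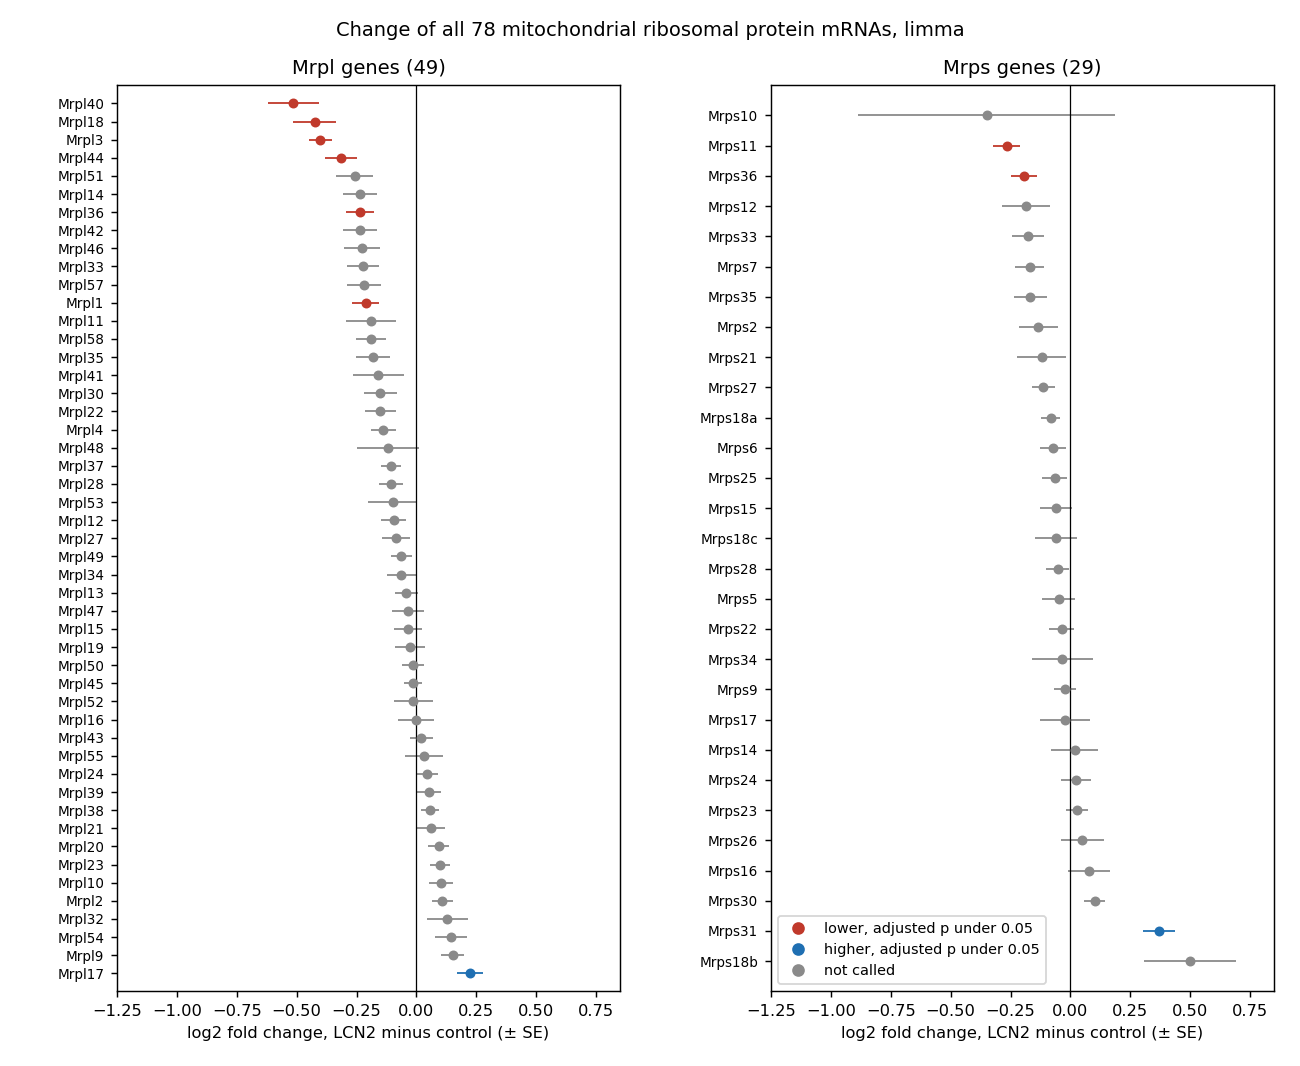
Log2 fold change (LCN2 minus control, x axis) with its standard error for each of the 49 Mrpl genes (left) and 29 Mrps genes (right), ordered from the lowest. Of the 78 genes 56 lie left of 0, and 10 passed the test (8 lower in red, 2 higher in blue). Mrps10 and Mrps18b have the widest errors.

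These counts depended on the libraries, as did those of all genes. The median deviation of the 78 members from their own mean was -0.024, -0.022 and -0.040 (log2) in LCN2 replicates 1 to 3 and 0.098, -0.022 and 0.024 in control replicates 1 to 3. Control replicate 1 was thus the highest library and control replicate 2 was level with the LCN2 libraries. Summed over the members, the deposited values came to 2336, 2377 and 2313 FPKM in LCN2 cells and 2624, 2557 and 2487 FPKM in control cells, or 0.591% to 0.604% of the column total in LCN2 and 0.622% to 0.657% in control libraries. After scaling the sums were 2395, 2403 and 2384 in LCN2 cells against 2621, 2406 and 2477 in control cells, so LCN2 replicate 2 and control replicate 2 were nearly level. Without control replicate 1 the median log2 fold change was -0.029, 48 of 78 members were below 0, and 1 rose and 2 fell. In that fit 4.01% of all tested genes rose and 2.14% fell, so the calls of the whole table moved as well. The numbers of members that rose and fell were 0 and 1 when LCN2 replicate 1 was left out (limma, 2 and 15 at an unadjusted p under 0.05), where 1.73% of all genes rose and 0.863% fell. They were 1 and 3 for LCN2 replicate 3 (all genes 2.94% and 1.79%), and 0 and 2 for control replicate 3 (4 and 18 unadjusted in limma, all genes 2.91% and 1.56%). They were 1 and 6 for control replicate 2 (all genes 9.97% and 7.38%), and 2 and 14 for LCN2 replicate 2 (all genes 16.1% and 14.6%).

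**Figure D2:**
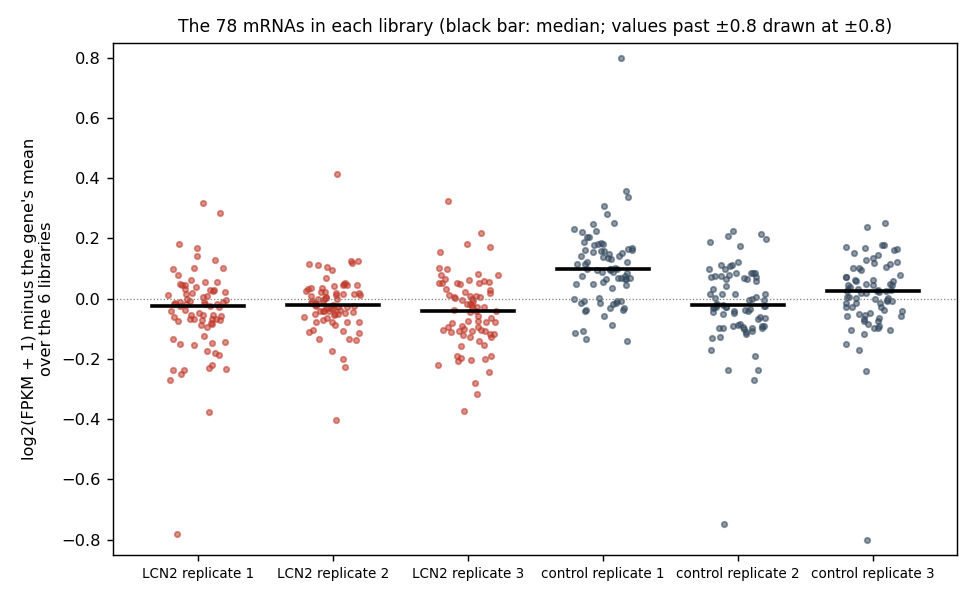
Each point is 1 of the 78 mRNAs, plotted as its scaled log2(FPKM + 1) minus its own mean over the 6 libraries (y axis), with the 3 LCN2 libraries left of the 3 controls. Black bars are medians, from -0.040 to -0.022 in LCN2 libraries and at 0.098, -0.022 and 0.024 in control replicates 1 to 3. Values beyond 0.8 from 0 are drawn at 0.8.

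The called genes are taken by the place of their proteins in the particle. Mrpl3 (uL3m), a core protein that reaches towards the peptidyl transferase centre, had the smallest adjusted p of the members. It had 18.1, 18.6 and 17.3 FPKM in LCN2 cells and 23.8, 26.1 and 25.6 FPKM in control cells, a mean of 18.0 ± 0.639 against 25.2 ± 1.19 FPKM (SD, n = 3 each). All LCN2 libraries lay well below all controls. The log2 fold change was -0.40 (SE 0.05, adjusted p = 0.0055). Mrpl3 (chr9:105053239-105079888, GRCm38) was the only called member that passed whichever of the 6 libraries was left out, with an adjusted p between 0.00335 and 0.0332. Its exons overlap those of the annotated genes Gm38077 and Gm47106, from which reads cannot be separated.

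The 8 members listed here for the central protuberance, the crown of the large subunit that touches the small one, gave 2 falls and 0 rises. Their median log2 fold change was -0.101. At an unadjusted p under 0.05 in limma 3 were lower and 0 higher, beside 1937 and 2089 of all 10309 tested genes. The 2 falls are 25% of a group of 8, beside 9.73% of all tested genes. Mrpl40 (mL40, chr16:18872018-18876862) had 10.4, 10.4 and 13.8 FPKM in LCN2 cells and 17.8, 17.8 and 17.0 FPKM in control cells. The controls lay close together, LCN2 replicate 3 stood apart from the other LCN2 libraries, and the groups did not overlap. Its log2 fold change of -0.51 (SE 0.11, adjusted p = 0.019) was the largest fall among the members. Mrpl18 (uL18m, chr17:12911349-12916345) had 23.3, 25.3 and 20.2 FPKM in LCN2 cells and 35.2, 31.3 and 30.9 FPKM in control cells (log2 fold change -0.43, SE 0.09, adjusted p = 0.020). Here too every treated library was below every control. Mrps30, which has a small subunit symbol but sits in this part of the large subunit (mL65), had 20.0, 20.7 and 20.8 FPKM in LCN2 and 19.0, 20.9 and 19.9 FPKM in control cells, groups that overlap as deposited and are separate after scaling. It did not pass (log2 fold change 0.10, adjusted p = 0.135). Mrpl40 was not called without LCN2 replicate 1, control replicate 1 or control replicate 3 (adjusted p = 0.076, 0.0622 and 0.0626), nor Mrpl18 without LCN2 replicate 1, LCN2 replicate 3, control replicate 1 or control replicate 3 (0.0706, 0.0635, 0.0612 and 0.062).

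In the rest of the large subunit 3 further falls and 1 rise passed the test. Mrpl44 (mL44, chr1:79776018-79781445, exons overlapping Wdfy1), which carries a fold related to RNase III, had 15.0, 17.7 and 15.3 FPKM in LCN2 cells and 19.6, 22.7 and 20.9 FPKM in control cells (log2 fold change -0.31, SE 0.07, adjusted p = 0.021). Mrpl36 (bL36m, chr13:73328513-73332178, exons overlapping Ndufs6), among the smallest proteins of the particle, had 27.97, 32.1 and 30.8 FPKM in LCN2 cells and 38.2, 38.7 and 35.2 FPKM in control cells (-0.23, SE 0.06, adjusted p = 0.031). In both genes the groups were separate, with LCN2 replicate 2 nearest to the controls. Mrpl1 (uL1m, chr5:96209493-96266727) had 6.18, 6.05 and 5.80 FPKM in LCN2 cells and 7.07, 7.57 and 7.67 FPKM in control cells (-0.21, SE 0.06, adjusted p = 0.039), with all treated libraries below all controls. The rise was in Mrpl17 (bL17m, chr7:105803206-105811099), which lies beside the exit of the nascent chain, at 18.2, 19.9 and 20.3 FPKM in LCN2 cells and 16.5, 17.9 and 17.3 FPKM in control cells (0.22, SE 0.05, adjusted p = 0.028). All treated libraries lay above all controls, by little for LCN2 replicate 1. It was the only called gene of 6 at the polypeptide exit, where 0 fell (limma, 1 lower at an unadjusted p under 0.05) and the median of 0.015 turned to -0.047 with values as deposited, -0.013 scaled to column sums and -0.014 after quantile normalization. Mrpl44 was lost without LCN2 replicate 1, LCN2 replicate 3, control replicate 2 or control replicate 3 (adjusted p = 0.0814, 0.0782, 0.0503 and 0.0749), Mrpl17 and Mrpl36 in every fit but that without LCN2 replicate 2 (up to 0.0978 and 0.0998), and Mrpl1 whichever library was left out (0.0515 to 0.126). Mrpl17 was also lost with values as deposited (0.0941).

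Of the 29 Mrps genes, 1 rose (3.45%) and 2 fell (6.9%), where 11.8% of all tested genes rose and 9.73% fell. Mrps31 (mS31, chr8:22411361-22429665), a mitochondria-specific protein of the small subunit, had 17.9, 16.1 and 16.2 FPKM in LCN2 cells and 13.7, 12.9 and 13.2 FPKM in control cells, a mean of 16.7 ± 1.01 against 13.3 ± 0.398 FPKM (SD, n = 3 each). Every treated library exceeded every control, and the log2 fold change was 0.37 (SE 0.07, adjusted p = 0.013). Mrps11 (uS11m, chr7:78783119-78792989), a protein of the platform along which messenger RNA leaves, had 18.2, 20.1 and 20.5 FPKM in LCN2 cells and 24.8, 24.9 and 24.7 FPKM in control cells (-0.27, SE 0.06, adjusted p = 0.021). The controls were nearly identical. The other fall was in Mrps36 (chr13:100735955-100744659), at 19.5, 20.4 and 17.8 FPKM in LCN2 cells and 22.6, 23.8 and 22.8 FPKM in control cells (-0.19, SE 0.05, adjusted p = 0.041). Despite its symbol, its product is now known as a component of the 2-oxoglutarate dehydrogenase complex of the citrate cycle and not of the ribosome. The genome also carries 3 annotated pseudogenes of it, whose reads could have been shared with it. Mrps31 was not called without LCN2 replicate 1 or control replicate 3 (adjusted p = 0.0562 and 0.051), Mrps11 without LCN2 replicate 1, control replicate 1 or control replicate 3 (0.0748, 0.0654 and 0.0742), and Mrps36 in every fit but that without LCN2 replicate 2 (up to 0.119).

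**Figure D3:**
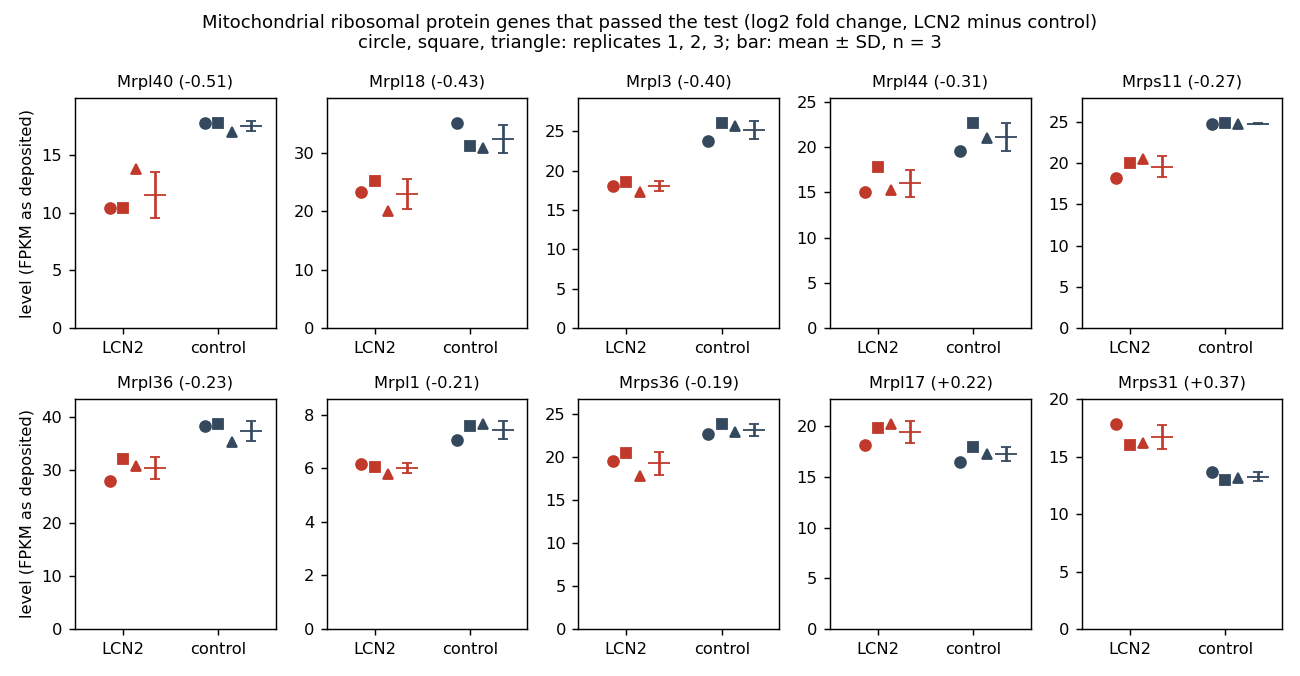
Levels in FPKM as deposited (y axis from 0) of the 10 members that passed the test, with LCN2 libraries in red left of control libraries in dark blue, 1 symbol for each replicate number and the mean ± SD (n = 3) beside them. The first 8 genes are lower in all LCN2 libraries, with log2 fold changes from -0.51 for Mrpl40 to -0.19 for Mrps36, and Mrpl17 and Mrps31 are higher.

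The start regions of the genes carried sequence features that the choice of members did not use. RefSeq promoter windows (250 bases before to 50 after the annotated start, GRCm38.p6) were found for 69 of the 78 genes. Both strands were searched for CCGGAAG, the core bound by ETS factors such as GABP, the palindromic core site of NRF1, AAGATGGCG (YY1), GGGCGG (SP1), CACGTG (the E-box of MYC and related factors) and TGATGNAA (a C/EBP-ATF element of ATF4). Shares are of genes, and a gene was counted if any of its windows matched. Mrpl48 had 4 windows, Mrpl2 3 and Mrps16 2. CCGGAAG was in 26 of 69 members (37.7%), against 22.5% of other tested genes and 9.93% of all genes with a window. The NRF1 site was in 18.8% of members (12.8% of other tested genes, 5.19% of all), and AAGATGGCG in 11.6% (3.99% and 1.64%). GGGCGG was in 49.3% of members, against 71.2% of other tested genes and 38.2% of all genes with a window, and CACGTG in 7.25% (12.3% and 8.09%). TGATGNAA was in 0 of 69 (2.69% and 4.51%). CCGGAAG and AAGATGGCG were both present in 2 members and overlapped in 0. The median log2 fold change was -0.092 in the 26 members with CCGGAAG and -0.063 in the 43 without it. With and without the NRF1 site (13 and 56 members) it was -0.022 and -0.078, and for AAGATGGCG (8 and 61) -0.147 and -0.063. For GGGCGG (34 and 35) it was -0.061 and -0.085, and for CACGTG (5 and 64) -0.058 and -0.078. These differences were not tested. These are matches of letters and not shown to be bound.

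The windows of the called genes with the largest changes in each direction, and of Mrps11 with its neighbour Mrpl46, are shown so that the start regions can be compared. Letters in capitals are matches to the motifs above, on either strand.
Mrpl3, chr9:105053018-105053317, plus strand: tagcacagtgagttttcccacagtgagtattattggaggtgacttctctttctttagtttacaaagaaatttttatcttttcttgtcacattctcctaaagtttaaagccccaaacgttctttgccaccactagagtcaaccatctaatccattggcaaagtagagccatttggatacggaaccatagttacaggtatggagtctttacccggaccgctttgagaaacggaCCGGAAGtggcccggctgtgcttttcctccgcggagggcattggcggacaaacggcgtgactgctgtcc
Mrpl40, chr16:18876588-18876887, minus strand: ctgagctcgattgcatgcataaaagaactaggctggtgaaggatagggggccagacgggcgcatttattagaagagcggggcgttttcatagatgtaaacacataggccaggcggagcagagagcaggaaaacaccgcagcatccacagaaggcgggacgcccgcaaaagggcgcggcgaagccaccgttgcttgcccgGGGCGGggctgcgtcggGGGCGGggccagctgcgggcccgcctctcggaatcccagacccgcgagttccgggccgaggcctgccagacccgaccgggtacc
Mrpl18, chr17:12916042-12916341, minus strand: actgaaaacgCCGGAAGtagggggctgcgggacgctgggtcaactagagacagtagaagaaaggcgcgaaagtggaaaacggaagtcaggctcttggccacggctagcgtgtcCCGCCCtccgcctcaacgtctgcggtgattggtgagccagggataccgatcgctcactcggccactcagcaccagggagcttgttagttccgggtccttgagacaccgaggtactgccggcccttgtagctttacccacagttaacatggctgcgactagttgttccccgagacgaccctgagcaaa
Mrps11, chr7:78782881-78783180, plus strand: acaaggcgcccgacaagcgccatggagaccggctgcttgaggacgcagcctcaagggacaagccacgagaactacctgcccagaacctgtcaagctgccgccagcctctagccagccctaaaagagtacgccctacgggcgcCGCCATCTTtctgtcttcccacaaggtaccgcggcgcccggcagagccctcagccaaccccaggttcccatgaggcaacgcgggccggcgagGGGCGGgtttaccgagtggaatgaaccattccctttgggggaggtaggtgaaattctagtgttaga
Mrpl46, chr7:78783040-78783339, minus strand: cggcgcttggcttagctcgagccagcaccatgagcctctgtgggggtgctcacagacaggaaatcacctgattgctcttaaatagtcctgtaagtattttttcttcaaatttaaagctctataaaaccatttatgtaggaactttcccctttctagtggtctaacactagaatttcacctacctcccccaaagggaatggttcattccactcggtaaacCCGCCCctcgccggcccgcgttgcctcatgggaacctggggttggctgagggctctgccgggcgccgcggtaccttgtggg
Mrps31, chr8:22411090-22411389, plus strand: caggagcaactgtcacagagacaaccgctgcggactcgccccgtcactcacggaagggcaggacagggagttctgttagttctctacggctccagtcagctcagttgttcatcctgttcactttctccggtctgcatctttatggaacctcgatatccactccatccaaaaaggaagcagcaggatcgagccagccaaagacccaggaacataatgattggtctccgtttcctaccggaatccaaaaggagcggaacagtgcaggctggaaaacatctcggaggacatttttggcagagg
Mrpl3 holds 1 match to the ETS core shortly before its RefSeq start (and just after the GENCODE start given above). Mrpl18 holds 1 ETS match far upstream of its RefSeq start, but likewise just after its GENCODE start, and 1 SP1 match. Mrpl40 holds 2 SP1 matches. Mrps11 holds 1 YY1 and 1 SP1 match. The windows of Mrps11 and Mrpl46 overlap on opposite strands, so the SP1 match is the same in both. None of the 6 motifs was found in the window of Mrps31, the member with the larger of the called rises.

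When the proteins are placed by structure and not by symbol, Mrps18a and Mrps30 move to the large subunit and Mrps36 leaves the particle. The large subunit then had 1 rise and 6 falls among 51 genes (median log2 fold change -0.083), and the small subunit 1 rise and 1 fall among 26 (median -0.055). These are shares of 1.96% and 11.8% in the large and 3.85% and 3.85% in the small subunit, beside 11.8% higher and 9.73% lower among all tested genes. Both medians stayed below 0 in all 5 scalings tried. Without control replicate 1 the small subunit median was -0.008 (16 of 26 below 0) and the large subunit median -0.051 (31 of 51). All tested genes had a median of -0.003 in that fit. Proteins with a bacterial counterpart gave 1 rise (2.17%) and 5 falls (10.9%) among 46 (median -0.059), and mitochondria-specific ones 1 rise (3.23%) and 2 falls (6.45%) among 31 (median -0.065). The latter class follows the prefix m, so it takes in Mrps18a and Mrps18b, paralogues of a bacterial protein described below. In the factor-binding stalk (Mrpl10, Mrpl11, Mrpl12, Mrpl53 and Mrpl54) 0 of 5 passed in limma, also at an unadjusted p under 0.05. Within it the log2 fold change ran from -0.19 for Mrpl11 to 0.14 for Mrpl54.

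The mammalian particle draws on 3 paralogues of bacterial protein S18. Mrps18a, which is built into the large subunit (mL66), had 48.7, 48.7 and 46.5 FPKM in LCN2 cells and 50.3, 56.5 and 52.9 FPKM in control cells. Its groups did not overlap, but the difference did not pass (log2 fold change -0.083, adjusted p = 0.177). Mrps18c (bS18m) had 26.5, 21.6 and 26.0 FPKM in LCN2 cells and 27.9, 27.3 and 25.3 FPKM in control cells, overlapping (-0.058, adjusted p = 0.655), and its sign turned without LCN2 replicate 2 (0.040). Mrps18b (mS40) had 30.1, 26.3 and 30.2 FPKM in LCN2 cells and 24.1, 15.1 and 25.2 FPKM in control cells. All treated libraries were above all controls. Control replicate 2 was far below the other controls, and although its fold change of 0.50 (SE 0.19) was the highest of all members it did not pass (adjusted p = 0.099). The 3 paralogues thus took different values, and the differences between them were not tested.

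Mrpl58 (mL62), a peptidyl-tRNA hydrolase that frees stalled chains, had 16.9, 18.8 and 17.2 FPKM in LCN2 cells and 22.04, 22.04 and 19.4 FPKM in control cells. The groups were separate, yet the gene did not pass (log2 fold change -0.19, SE 0.06, adjusted p = 0.068). It did pass without LCN2 replicate 2 (adjusted p = 0.039), when scaled to column sums (0.0478) and when left as deposited (0.0388). Mrps12 (uS12m), which helps to read the codon at the decoding centre, had 20.9, 24.2 and 17.4 FPKM in LCN2 cells and 24.7, 25.04 and 24.3 FPKM in control cells (-0.19, SE 0.10, adjusted p = 0.207), the 3 controls being close and the LCN2 libraries scattered. Mrps12 passed without LCN2 replicate 2 (adjusted p = 0.0337). A further set of members lay just outside the threshold, among them Mrpl42, Mrpl51, Mrpl33 and Mrpl14 (log2 fold changes -0.23, -0.26, -0.22 and -0.23, adjusted p = 0.051, 0.052, 0.052 and 0.053). These 4 were chosen after their values were seen. In each of them all LCN2 libraries were below all controls after scaling.

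The genes lie on 17 chromosomes, with the most, 11, on chromosome 11 and 8 on chromosome 17. In 33 of 78 members (42.3%) the start lay within 1000 bases of the start of another protein-coding gene that runs the opposite way, compared with 18.0% of the other tested genes. One such pair is made of 2 members, Mrps11 and Mrpl46, on chromosome 7 with starts 412 bases apart. Mrpl46 (mL46), of the central protuberance, had 19.1, 19.0 and 15.7 FPKM in LCN2 cells and 20.7, 23.0 and 22.4 FPKM in control cells, separate groups that did not pass (log2 fold change -0.23, SE 0.08, adjusted p = 0.070). Both genes of the pair were lower in every treated library, with log2 fold changes of -0.27 for Mrps11 and -0.23 for Mrpl46. Their exons overlap, and the table does not separate such reads.

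For 28 other members the neighbour was a tested gene outside the family, and for 3 it was not tested. The signs of the pair were the same in 16 of 28, and 7 neighbours fell and 1 rose, where 9.73% of all tested genes fell and 11.8% rose. Mrpl18 and Tcp1, a subunit of the cytosolic chaperonin, was the 1 pair in which both passed. Tcp1 had 127, 130 and 125 FPKM in LCN2 cells and 146, 155 and 142 FPKM in control cells (log2 fold change -0.15, adjusted p = 0.024), and its exons overlap those of Mrpl18. Beside Mrpl51, the condensin gene Ncapd2 fell to 35.3, 42.0 and 33.3 FPKM in LCN2 cells, against 54.1, 52.6 and 54.8 FPKM in control cells (-0.48, adjusted p = 0.012). Twnk, the helicase that unwinds mitochondrial DNA, fell to 15.5, 16.4 and 15.4 FPKM in LCN2 cells, against 20.5, 21.1 and 20.9 FPKM in control cells (-0.32, adjusted p = 0.0073). Its neighbour Mrpl43, with which it shares exon bases, had 30.6, 31.4 and 28.97 FPKM in LCN2 and 29.9, 31.9 and 31.9 FPKM in control cells (0.020, adjusted p = 0.777). Ppp1r10, a regulator of protein phosphatase 1 whose start is 45 bases from that of Mrps18b, fell to 8.2, 7.75 and 6.91 FPKM in LCN2 cells, against 10.98, 11.2 and 9.08 FPKM in control cells (-0.35, adjusted p = 0.031). The 1 neighbour that rose was Rab6a, a Golgi GTPase beside Mrpl48 (0.15, adjusted p = 0.045). The differences within pairs were not tested. Of these neighbours, Twnk was called whichever library was left out, with an adjusted p of up to 0.0431. Ncapd2 was lost without LCN2 replicate 1 or control replicate 3 (up to 0.0574), Ppp1r10 without LCN2 replicate 1, LCN2 replicate 3, control replicate 1 or control replicate 2 (up to 0.104), and Tcp1 and Rab6a in every fit but that without LCN2 replicate 2 (up to 0.0913 and 0.145). These 5 neighbours were chosen after their values were seen.

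**Figure D4:**
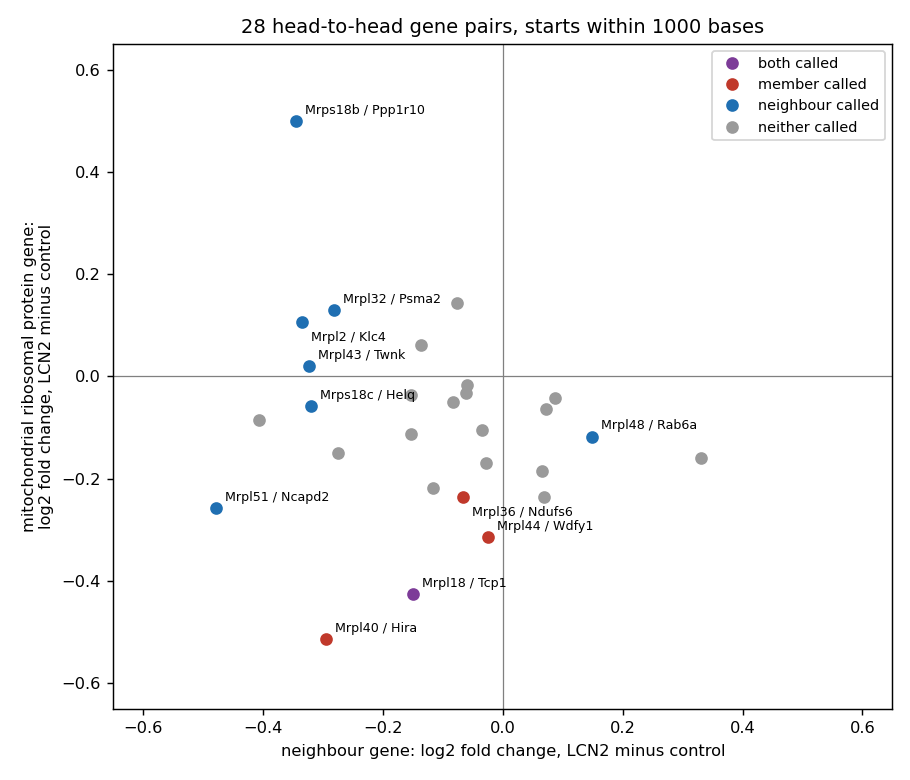
Log2 fold change (LCN2 minus control) of the mitochondrial ribosomal protein gene (y axis) against that of its head-to-head neighbour (x axis) for 28 pairs. The signs match in 16 of 28, Mrpl18 with Tcp1 is the 1 pair with both called, and Mrps18b with Ppp1r10 lies farthest into the quadrant of opposite signs.

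Genes that work with the mitochondrial ribosome were set against the same background, 11.8% of all tested genes higher and 9.73% lower. Of 5 ribosomal proteins that carry other symbols, 0 passed in limma, also at an unadjusted p under 0.05, and the median log2 fold change was 0.007 (-0.056 as deposited, -0.022 scaled to column sums, -0.024 after quantile normalization and -0.033 without control replicate 2). Dap3, a GTP-binding protein of the small subunit, had 28.4 ± 4.31 FPKM in LCN2 and 32.7 ± 3.70 FPKM in control cells (SD, n = 3 each, log2 fold change -0.14, adjusted p = 0.400), and Aurkaip1 had 37.6 ± 1.24 and 38.2 ± 2.42 FPKM (0.044, adjusted p = 0.571), a sign that turned with values as deposited (-0.018). Among 24 tested assembly factors 2 rose (8.33%) and 3 fell (12.5%), with a median of -0.003. Noa1, a GTPase needed for the small subunit, fell to 12.4 ± 1.46 FPKM in LCN2 cells, against 17.6 ± 0.810 FPKM in control cells (-0.42, adjusted p = 0.014). The rRNA methyltransferase Mrm2 (-0.45, adjusted p = 0.016) and the GTPase Mtg2 (-0.21, adjusted p = 0.026), which both act on the large subunit, fell too, and Mterf3, which acts on transcription and large subunit assembly, rose (0.28, adjusted p = 0.020). The second rise was in Ngrn, needed for the large subunit rRNA (0.37, adjusted p = 0.041, chosen after its value was seen). With values as deposited 0 rose and 3 fell, where 6.72% of all tested genes rose and 16.3% fell. Each of the 5 was lost without LCN2 replicate 1, LCN2 replicate 3 or control replicate 1, and all but Mrm2 without control replicate 3 (adjusted p of up to 0.134).

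Among 15 translation factors 1 rose (6.67%) and 2 fell (13.3%, median log2 fold change -0.023). The elongation factor Tufm fell to 81.8 ± 5.71 FPKM in LCN2 cells, against 102 ± 0.436 FPKM in control cells (log2 fold change -0.25, adjusted p = 0.020), and the translocase Gfm1 to 26.0 ± 2.69 FPKM in LCN2 cells, against 32.7 ± 1.89 FPKM in control cells (-0.26, adjusted p = 0.036). Mrrf, which helps to split the particle after termination, rose (0.34, adjusted p = 0.037). All 3 calls were lost without LCN2 replicate 1, LCN2 replicate 3, control replicate 1 or control replicate 3, and those of Gfm1 and Mrrf also without control replicate 2 (up to 0.115). Of the 13 mRNAs that these ribosomes translate, mt-Cytb (0.13, adjusted p = 0.033) and mt-Nd5 (0.12, adjusted p = 0.041) rose and 0 fell (limma, 2 lower at an unadjusted p under 0.05). These 2, mt-Nd2 (-0.148, adjusted p = 0.059) and mt-Nd1 (-0.146, adjusted p = 0.077), had the largest changes of the 13. They were named after their values were seen. The median of the 13 was 0.043. With values as deposited it was -0.021, with 0 rises and 2 falls, where 6.72% of all tested genes rose and 16.3% fell. Scaled to column sums 1 rose and 2 fell, where 9.22% of all tested genes rose and 12.7% fell. After quantile normalization 0 rose and 1 fell, where 10.8% of all tested genes rose and 11.3% fell. The calls of mt-Cytb and mt-Nd5 were lost without LCN2 replicate 1, LCN2 replicate 3, control replicate 1 or control replicate 3 (up to 0.151).

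The proteins of the cytosolic ribosome offered the nearest comparison. They were matched by symbol, which also takes in genes such as Rps19bp1. Of 83 tested genes 4 rose (4.82%, background 11.8%) and 0 fell. At an unadjusted p under 0.05 in limma 21 were higher and 1 lower, beside 2089 and 1937 of all 10309 tested genes. After scaling, all LCN2 libraries lay above all controls in 28 (33.7%, background 23%) and below them in 1 (1.2%, background 21.6%). The 1 gene lower at an unadjusted p under 0.05 in limma was Rps28, named after its value was seen. It had 0.686, 20.4 and 92.8 FPKM in LCN2 cells and 214, 219 and 123 FPKM in control cells (log2 fold change -3.53, adjusted p = 0.079). The 83 genes had a median log2 fold change of 0.093 and 8 lay below 0, where the mitochondrial set had a median of -0.063 and 56 of 78 below 0. The sign of neither median turned under the other 4 scalings, in which the cytosolic one ran from 0.030 to 0.090 and the mitochondrial one from -0.124 to -0.066. The rises were in Rpl7l1 (0.32, adjusted p = 0.010), which belongs to the family by its symbol and acts in ribosome assembly, Rpl10a (0.29, adjusted p = 0.017), Rpl12 (0.26, adjusted p = 0.022) and Rpl3 (0.16, adjusted p = 0.042), the cytosolic counterpart of the falling Mrpl3. After quantile normalization 8 rose, where 10.8% of all tested genes rose. Without LCN2 replicate 2 13 rose, where 16.1% of all tested genes rose. The difference between both sets was not tested. Without LCN2 replicate 1 the calls of all 4 were lost, and those of Rpl10a, Rpl12 and Rpl3 also without LCN2 replicate 3, control replicate 1 or control replicate 3, with Rpl3 lost without control replicate 2 as well (adjusted p of up to 0.145).

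**Figure D5:**
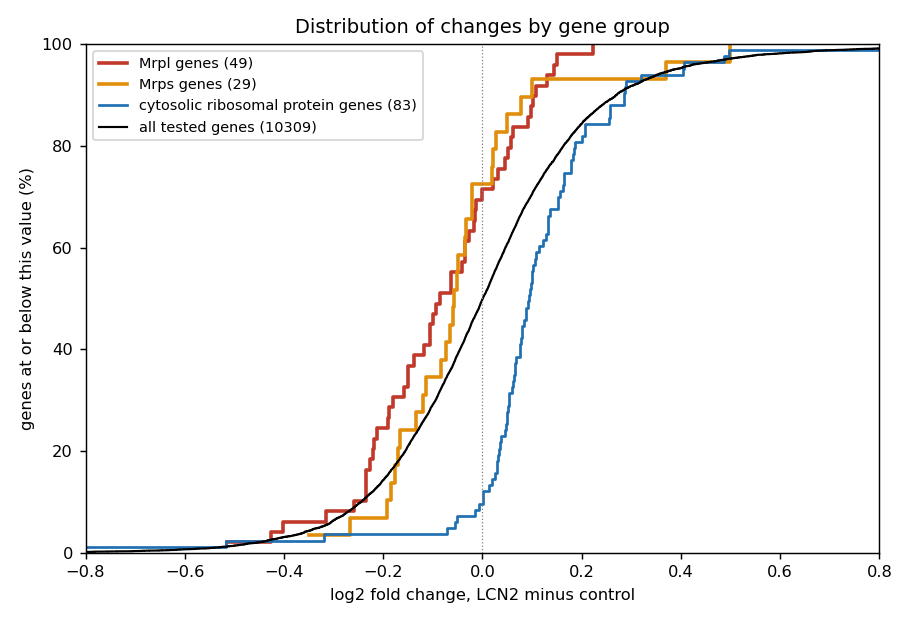
Cumulative share of genes (y axis, %) at or below each log2 fold change (LCN2 minus control, x axis) for 49 Mrpl genes, 29 Mrps genes, 83 cytosolic ribosomal protein genes and all 10309 tested genes. The curves of the Mrpl and Mrps genes cross 0 at 71.4% and 72.4%, that of all genes at 49.8% and that of cytosolic ribosomal protein genes at 9.64%.

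Across the 78 members the log2 fold change had weak rank correlations with the features checked. Spearman's rho was 0.04 with the length of the longest annotated transcript, -0.02 with its GC content and 0.19 with the mean level, values that describe these genes only, since genes of 1 library share its depth and composition. The median longest transcript was 1866 bases, against 3380 bases for all tested genes. In 33 of 78 members (42.3%) and 38.2% of other tested genes, exons overlap those of another annotated gene.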

How the data were processed

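The build was GRCm38, per the submitters' processing notes, and per the labels' protocols RNA from an RNeasy kit went into SMARTer mRNA libraries. The aligner, quantifier and strand setting were not given in the sources used here. The deposited data are 1 table of genes by libraries. It is named for raw counts, but 0% of its values above 0 were whole numbers (tolerance 1e-9), and the products of value and transcript length (kilobases) added up to 1032628 to 1095179 per library, so the deposited values were taken as FPKM. Among low genes with 1 annotated transcript the commonest ratio between libraries held 3 to 5 of 396 to 428 genes (tolerance 0.002, log2), so whole reads were not recovered and depth is unknown. No intervals that need depth are given.

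The 10309 genes averaging 1 FPKM or more were scaled by the trimmed mean of M-values without count weights (trims 0.3 and 0.05), and log2(FPKM + 1) was fitted with limma 3.58.1 in R 4.3.3, with a mean-variance trend but without a term for replicates. The fit was also run on simulated data with independent noise for each gene and few changed genes. That run does not bear on how the calls depend on single libraries. Fold changes on this scale understate the change of low genes. Tests are two-sided with Benjamini-Hochberg adjustment over all tested genes, and every adjusted p is from limma. Levels are FPKM as deposited. Alternatives were a pseudocount of 0.1, other filters, 4 other scalings, no trend, a replicate term and leaving out each library.

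Positions and exon overlap are from GENCODE M21 (GRCm38), promoters from RefSeq (GRCm38.p6). Members, lists and the rule for named genes were chosen with earlier results of these data known. The rule names called members, the 3 highest and 3 lowest, the 5 largest changes, 9 members with a special role, and up to 4 called genes (or 2 uncalled) of each other list. In the cytosolic list, names ending in -ps were left out.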

Additional observations from a re-analysis of the deposited data

How the results depend on the processing

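Of the 78 members 2 rose and 8 fell in the reported fit, of which Mrpl genes made up 1 and 6 and Mrps genes 1 and 2. With a pseudocount of 0.1, a mean of at least 0.1 FPKM or median-ratio scaling every count was within 1.5 times of these. With no filter on low values 5 members fell, 1 of them an Mrps gene, where 6.05% of all tested genes rose and 4.34% fell. With values as deposited 1 rose and 21 fell (Mrpl 0 and 17, with 1 and 23 at an unadjusted p under 0.05 in limma, and Mrps falls 4), and the median log2 fold change was -0.124. In that fit 6.72% of all tested genes rose and 16.3% fell. Scaled to column sums 15 fell (Mrpl 12), where 9.22% of all tested genes rose and 12.7% fell. After quantile normalization 10 Mrpl genes fell, where 10.8% of all tested genes rose and 11.3% fell. With no variance trend 1 Mrps gene fell, where 10.4% of all tested genes rose and 8.44% fell. The same replicate numbers in both groups did not pair the libraries (correlations of their deviations -0.224, -0.261 and 0.00858), and every library correlated better with another number. With the replicate block 181 genes of all those tested rose and 81 fell, and of the members 1 rose and 1 fell, Mrps31 and Mrpl3 (Mrpl 0 and 1, Mrps falls 0, in limma 2 rises and 14 falls of Mrpl and 2 falls of Mrps genes at an unadjusted p under 0.05). Leaving out 1 library at a time gave 0 to 2 rises and 1 to 14 falls (Mrpl rises 0 to 1 and falls 1 to 9, Mrps rises 0 to 1 and falls 0 to 5). Where a count was 0, limma gave at an unadjusted p under 0.05, without LCN2 replicate 1, 2 rises of members, 1 of Mrpl and 1 of Mrps genes, and 2 falls of Mrps genes. Without control replicate 3 it gave 4 rises of members, 2 of Mrpl and 2 of Mrps genes, and 5 falls of Mrps genes. Without control replicate 1 it gave 2 Mrpl rises and 3 Mrps falls, and 2 Mrpl rises each without LCN2 replicate 3 and control replicate 2. The log2 fold change then ran from -0.888 to 0.228 for Mrps10, -0.208 to 0.017 for Mrpl48, -0.10 to 0.051 for Mrpl52 and -0.113 to 0.040 for Mrps18c. Aurkaip1 turned to -0.018 with values as deposited. In each of these the cause was not tested. Depth is unknown, so what it limits cannot be stated.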
